A study of Mus musculus with 4 samples.

Results

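The Hedgehog pathway was followed through 9 genes of its core, Hhip, Boc, Cdon, Gas1, Ptch1, Smo, Gli1, Gli2 and Gli3, in mouse fibroblasts carried through chemical transformation. The probes were all those on the array whose gene name equalled 1 of these 9 symbols, which gave 14 probes of 61307, or 9 genes of 50090 distinct gene names. The cells were C3H10T1/2, an established line of mouse embryo fibroblasts that grows as a contact-inhibited monolayer and is used to count transformed foci in culture. The control group was 2 arrays of cells cultured for 6 weeks without either agent. The 3MC+TPA group was 2 arrays of cells given 3-methylcholanthrene (3MC), a polycyclic aromatic hydrocarbon that acts as a tumour initiator, at 2.5 µg/ml for 2 days. These cells were then kept in fresh medium for 4 days, given the tumour promoter and phorbol ester TPA at 100 ng/ml repeatedly over 2 weeks, and kept in normal medium for the last 4 weeks. The comparison asked which transcripts differed in the exposed cultures at the end of this course. The labels describe flasks scored for foci, with transformed foci growing in a monolayer. They do not say that foci were picked for RNA.

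Hedgehog proteins are secreted ligands that act on neighbouring cells. Without ligand, the receptor Ptch1 keeps the membrane protein Smo inactive, and ligand lifts that block, so that Smo signals through the primary cilium to the Gli transcription factors. Ptch1, Hhip and Gli1 are themselves transcribed in response to the signal in many tissues, and Boc, Cdon and Gas1 are surface co-receptors that bind ligand together with Ptch1. In embryonic mesenchyme and in cultured C3H10T1/2 cells, the pathway is known for driving skeletal differentiation.

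RNA was amplified, labelled with 1 dye (Cy3) and read on 60-base probes. Between 52.1% and 52.7% of the probe spots of an array were well above background and none was saturated. Array values correlated at 0.991 between the controls, at 0.988 between the exposed arrays and at 0.945 to 0.959 across groups. Whether a group's 2 arrays hold RNA of 2 cultures is not stated in the labels. The series' design text says that the labelled RNA was hybridised in duplicate, so the 2 arrays may share 1 RNA. The p-values therefore reflect array-to-array spread alone, which can be technical. All 4 arrays lay on 1 slide with the controls in the first positions, so position and group cannot be told apart. All 10 fibroblast markers looked up (collagens, vimentin, Pdgfra and others) were well above background on all 4 arrays. Their summed level, in multiples of each array's 75th-percentile signal, was 1973 and 1780 on the control arrays and 1553 and 1607 on the exposed arrays. Of the same list Pdgfra, Pdgfrb and Postn fell and Thy1 rose. Of 7 epithelial markers 3 were well above background on all 4 arrays, with summed levels of 0.28 to 0.31 in both groups and Cdh1 on no array. Of 6 leukocyte markers 4 were, with summed levels of 0.56 and 0.45 on the control and 0.68 and 0.68 on the exposed arrays and Ptprc on no array. None of 5 endothelial markers was well above background on all 4 arrays, with 0.13 to 0.14 on the control and 0.13 to 0.18 on the exposed arrays. Of these 5, Pecam1, Cdh5 and Kdr were well above background on no array. Tek rose, at least 1.77-fold. It was well above background only on the exposed arrays, and so could differ in 1 direction only. The part of these markers in the results was not tested.

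The probes define what was measured, and where a gene has 2 of them they read different stretches of its transcript. Their first 30 of 60 bases, as the array design gives them, were the following for the genes whose values the results turn on, with the second probe of a gene where both were tested.
Hhip probe 1: atgacgtcttacttgctggatctcacaagt
Hhip probe 2: tatagaattatgaccatgagcatgaaagac
Boc: tgctgtttaggtcttgtaccagttgaagaa
Cdon probe 1: tgtgtgaagttgtacatactctaagtgatg
Cdon probe 2: caggcctggggacaaactgtgtgaaggaca
Gas1: aaagttaccatggtgttgaacaatgcatgt
Ptch1: ggggtatttgaggatcctcatgtgcctttt
Smo probe 1: aatgtctagtcattttcatagtgccccaca
Smo probe 2: gtgggaggctacttcctcatcacaggggtc
No other probe on the array had the sequence of any of the 14 probes. The longest run of bases shared by 2 probes of 1 gene was 9 bases. Their GC content ran from 35.0% to 55.0% with a median of 40.8%, against 43.3% over all probes.

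Of the 9 genes, 4 fell in the exposed cells and none rose. Cdon, however, passed as higher with no scaling between arrays and with a trended, robust variance model. Hhip, a decoy receptor that binds Hedgehog ligands at the cell surface and limits the signal, went from clearly measured to background. Boc, an immunoglobulin-family co-receptor, was 4.08-fold lower. Gas1, a GPI-anchored co-receptor, was 2.43-fold lower, and Ptch1, the receptor itself, was at least 1.59-fold lower from a low level. Cdon, Smo, Gli2 and Gli3 did not pass the test, and Gli1 was not well above background on any array. A gene's value was that of its brightest probe, and a gene was tested where that probe was well above background on both arrays of at least 1 group. Passing meant an adjusted p under 0.05 in limma, adjusted by Benjamini-Hochberg over the 24977 features tested. Over all of these features 15.8% passed, 8.33% as lower and 7.43% as higher. Higher features were 47.2% of the calls, and 79.1% with no scaling between arrays. Of the 9 genes 8 were tested. Hhip and Ptch1 were tested only through their control arrays and so could differ in 1 direction only, and the count and median are given as descriptions. The median log2 change of the 8 genes was -0.75, against -0.01 over all features tested. Of the 6 that were well above background on all 4 arrays, 2 fell and the median was -0.14. Of all 22640 features so measured, 1574 fell and 1437 rose, and the median was -0.01. The values of the 2 groups did not overlap for 7 of the 8, all but Gli2, which also held for 63.7% of all features. These are bulk samples, so a lower value may be fewer cells with a transcript or less of it per cell, and the 2 cannot be told apart.

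**Figure D1:**
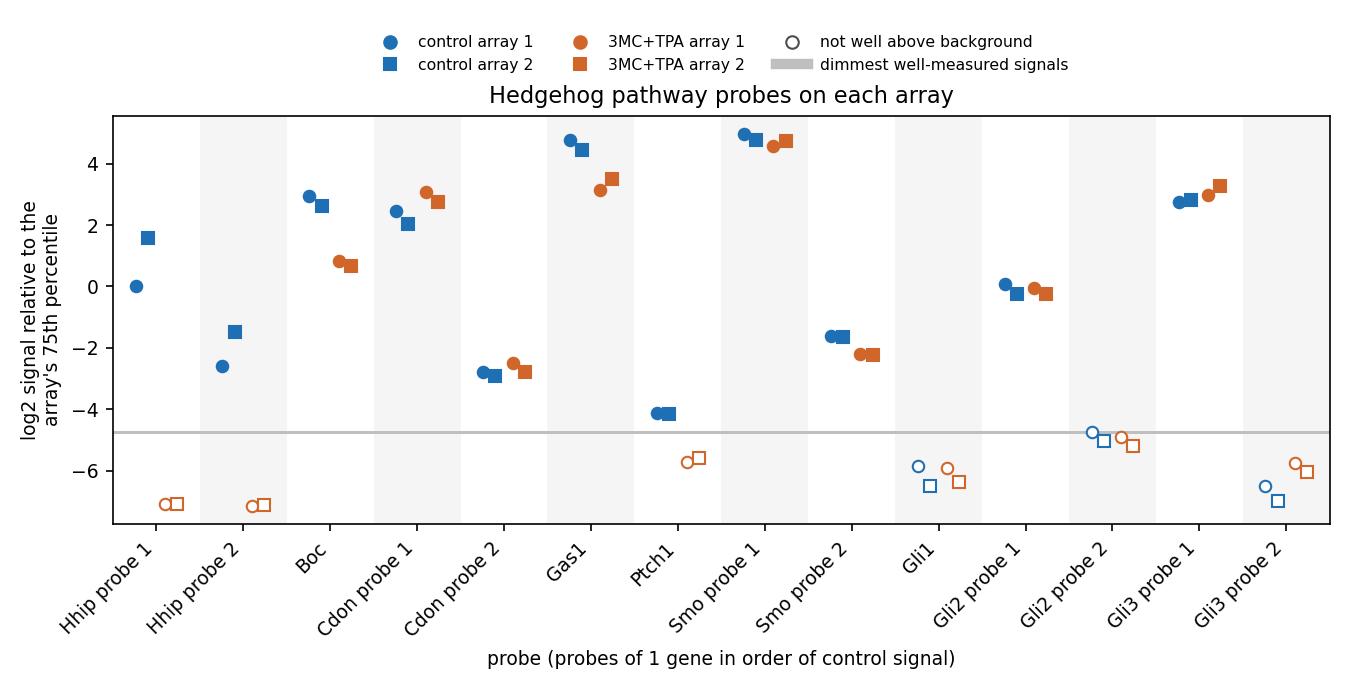
Each of the 14 probes on each of the 4 arrays, as log2 signal over that array's 75th percentile (vertical axis), with control arrays in blue, 3MC+TPA arrays in orange and open symbols where a spot was not well above background. The exposed arrays of both Hhip probes and of Ptch1 lie below the grey band of the dimmest well-measured signals, -4.82 to -4.72, while their control arrays lie above it.

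The inhibitory side of the receptor level was read by Hhip and Ptch1. Hhip probe 1 read 0.01 and 1.57 on the control arrays and -7.09 and -7.09 on the 3MC+TPA arrays, in log2 signal over the 75th percentile of the array. Both control arrays were high, with a mean of 0.79 ± 1.11 (SD, n = 2), and both exposed values were the scanner software's substitute for spots at background. Before any subtraction the same spots had mean intensities of 620.1 and 1867 in the controls, over a local background of 32 and 35, and of 42.6 and 43.0 in the exposed, over 31 and 30. The fitted log2 change was -7.88 ± 0.51 (SE, 95% confidence interval -9.19 to -6.57, limma adjusted p = 0.0016). The SD of the exposed arrays, 0.0037, is that of substitute values. The SE, interval and p-value therefore hold no measured spread of the exposed group, and the interval is not a range for the true change. Because the exposed spots were not well above background, the size is a bound. Hhip was at least 48.4-fold lower, from the control mean against the dimmest signals that were well above background on the exposed arrays. That bound rests on the spread of the controls, being at least 28.1-fold with control array 1 alone and at least 83.2-fold with control array 2 alone.

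Hhip probe 2 read another stretch of the transcript. It gave -2.59 and -1.50 on the control arrays and -7.14 and -7.12 on the exposed arrays. The pattern was that of probe 1, with control array 2 above control array 1 and both exposed arrays at substitute values. In the fit over single probes its change was -5.08 ± 0.37 (SE, interval -6.03 to -4.13, limma adjusted p = 0.0021), which is at least 6.79-fold lower. With control array 1 alone the bound was at least 4.64-fold, and with control array 2 alone at least 9.94-fold. The SE, interval and p-value of probe 2 have the limit given for probe 1. The 2 probes share the RNA of each array and are no replicates of each other.

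Ptch1 was read by 1 probe near the limit of detection. Its values were -4.11 and -4.17 on the control arrays and -5.71 and -5.58 on the exposed arrays. The control spots passed as well above background and the exposed spots did not, although they kept measured signals. In mean intensity before subtraction these were 74.9 and 79.4 against 60.1 and 61.5, over local backgrounds of 29 to 33.5. The fitted change was -1.51 ± 0.15 (SE, interval -1.90 to -1.12, limma adjusted p = 0.0055). The bound was at least 1.59-fold lower. An alternative removed background by the normexp model in place of subtraction and added an offset of 50 to each signal. There the Ptch1 change was -0.53 (limma adjusted p = 0.036, with adjusted p between 0.0054 and 0.11 over all its alternatives). An added constant makes the fold of dim spots smaller, and its part was not tested apart from that of the model. The same model and offset moved Hhip to -4.39 (limma adjusted p = 0.0012, with a range of 0.00022 to 0.14).

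The co-receptors did not move together. Boc read 2.94 and 2.63 on the control arrays and 0.84 and 0.67 on the exposed arrays. All 4 spots were far above background and both exposed arrays lay below both controls. Its log2 change was -2.03 ± 0.18 (SE, interval -2.50 to -1.56, limma adjusted p = 0.0041), and 2.82% of all tested features had a change as low or lower. Gas1 read 4.77 and 4.44 on the control arrays and 3.15 and 3.49 on the exposed arrays. The groups did not overlap, and the SD between the 2 arrays was 0.24 in each group. Its log2 change was -1.28 ± 0.21 (SE, interval -1.81 to -0.75, limma adjusted p = 0.019), and 5.53% of features had a change as low or lower. The Gas1 call was not held by every set of arrays. Leaving out control array 1 gave -1.12 (limma adjusted p = 0.051), leaving out exposed array 1 gave -1.12 (adjusted p = 0.089) and leaving out exposed array 2 gave -1.45 (adjusted p = 0.061), in a range of 0.0030 to 0.19 over all its alternatives. It was also lost with no filter on dim probes (adjusted p = 0.097). In each fit that left out an array, the lone array of a group was assumed to vary like the other group.

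Cdon, the closest relative of Boc in sequence and the other immunoglobulin-family co-receptor, did not follow it. Cdon probe 1 read 2.47 and 2.03 on the control arrays and 3.09 and 2.76 on the exposed arrays. Both exposed arrays lay above both controls, and the difference did not pass the test. It was 0.67 ± 0.22 (SE, interval 0.10 to 1.25, limma adjusted p = 0.11). The intervals of Boc and Cdon do not overlap, although the difference between the 2 genes was not itself tested. Cdon probe 2 read a much dimmer signal, at -2.78 and -2.92 on the control and -2.48 and -2.79 on the exposed arrays, with a difference of 0.21 ± 0.18 (SE, interval -0.25 to 0.68, limma adjusted p = 0.47 in the fit over single probes). Cdon passed with no scaling between arrays (1.02, limma adjusted p = 0.020), which moved the median of all features to 0.34, and with a trended, robust variance model (0.67, adjusted p = 0.049). Over its 16 alternatives the adjusted p ran from 0.020 to 0.48.

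**Figure D2:**
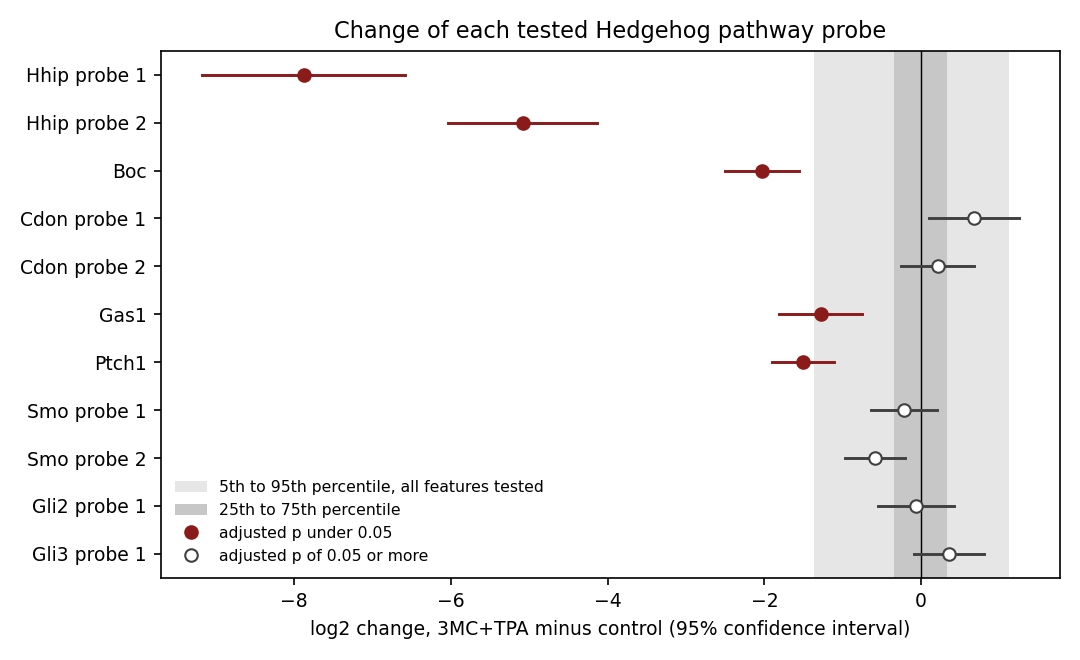
Fitted log2 change (3MC+TPA minus control, horizontal axis) with its 95% confidence interval for each of the 11 probes tested, from the fit over single probes, over grey bands that hold the central range of all tested features. The 5 filled probes, those of Hhip, Boc, Gas1 and Ptch1, passed the test as lower, at -7.88, -5.08, -2.03, -1.28 and -1.51.

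Smo, the membrane protein that carries the signal inward, kept a high signal. Smo probe 1 read 4.96 and 4.78 on the control arrays and 4.58 and 4.73 on the exposed arrays. The exposed values lay just below the controls, and the difference of -0.21 ± 0.16 (SE, interval -0.63 to 0.20, limma adjusted p = 0.41) turned to 0.13 with no scaling between arrays. Smo probe 2 read -1.61 and -1.63 on the control arrays and -2.20 and -2.22 on the exposed arrays. These values were tight within each group and apart between them, with a difference of -0.59 ± 0.15 (SE, interval -0.97 to -0.21, limma adjusted p = 0.059 in the fit over single probes). Both probes had negative differences and neither passed.

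The Gli factors are the transcription factors at the end of the pathway, with Gli1 an activator, Gli2 mainly an activator and Gli3 mainly a repressor when the signal is off. Gli1, whose own transcription is a common readout of the signal, read -5.84 and -6.49 on the control arrays and -5.90 and -6.38 on the exposed arrays. None of these 4 spots was well above background, the groups overlapped, and no fold is given. Gli2 probe 1 read 0.07 and -0.25 on the control arrays and -0.04 and -0.26 on the exposed arrays. The groups overlapped, and the difference was -0.07 ± 0.19 (SE, interval -0.55 to 0.42, limma adjusted p = 0.84), so that a change of more than 0.55 down or 0.42 up lies outside the interval. Its sign turned with no scaling (0.28) and without control array 1 (0.10) or exposed array 2 (0.04). Gli3 probe 1 read 2.74 and 2.80 on the control arrays and 2.99 and 3.27 on the exposed arrays. Both exposed arrays lay above both controls, with a difference of 0.36 ± 0.17 (SE, interval -0.09 to 0.80, limma adjusted p = 0.22). The second probes of Gli2 (-5.20 to -4.73) and Gli3 (-6.98 to -5.74) were not well above background on any array.

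Of the 14 probes 11 were tested and 5 passed, all as lower. Of all 32103 probes tested, 15.5% passed in either direction and 8.01% as lower. Of the 5, both Hhip probes and the Ptch1 probe were tested only through their control arrays. They could differ in 1 direction only, so the count is given as a description. Hhip, Cdon and Smo each had 2 tested probes, and within each gene both differences had the same sign. The sizes differed: -7.88 and -5.08 for Hhip, 0.67 and 0.21 for Cdon, and -0.21 and -0.59 for Smo. Over the whole array 5582 genes had 2 or more tested probes. In 1197 of them at least 1 probe passed, in 551 all did, and in 4 probes passed in opposite directions.

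The promoters of the genes that fell were compared by the 250 bases before the RefSeq transcription start (GRCm38.p6), since Gli factors bind a known core motif. An entry was at hand for 7 of the 9 genes. They were searched for ACCACCC, the core of the consensus Gli site, on both strands, where it reads GGGTGGT on the other strand. Of the 7 promoters 1 held it, that of Gli2, against 3.92% of 32851 RefSeq promoters of the same length. Hhip (chr8:80058009-80058258), Gas1 (chr13:60177536-60177785), Ptch1 (chr13:63565736-63565985) and Gli2 (chr1:119053620-119053869) all lie on the minus strand. They are shown in the direction of transcription for the 3 genes that fell and have an entry, and for Gli2 with its motif in capitals.
Hhip promoter: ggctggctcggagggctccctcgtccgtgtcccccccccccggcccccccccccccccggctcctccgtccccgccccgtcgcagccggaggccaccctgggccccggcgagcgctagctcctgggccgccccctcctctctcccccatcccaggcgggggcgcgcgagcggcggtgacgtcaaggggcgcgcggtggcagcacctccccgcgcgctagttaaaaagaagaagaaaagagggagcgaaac
Gas1 promoter: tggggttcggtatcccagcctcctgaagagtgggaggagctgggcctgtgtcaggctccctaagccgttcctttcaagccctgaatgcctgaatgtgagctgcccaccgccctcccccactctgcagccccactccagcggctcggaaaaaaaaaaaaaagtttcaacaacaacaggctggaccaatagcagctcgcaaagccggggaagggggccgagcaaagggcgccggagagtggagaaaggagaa
Ptch1 promoter: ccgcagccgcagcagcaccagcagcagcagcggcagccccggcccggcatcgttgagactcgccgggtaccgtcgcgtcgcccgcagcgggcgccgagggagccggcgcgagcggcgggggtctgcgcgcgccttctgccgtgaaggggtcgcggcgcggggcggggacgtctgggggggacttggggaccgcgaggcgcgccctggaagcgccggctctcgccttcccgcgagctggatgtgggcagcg
Gli2 promoter: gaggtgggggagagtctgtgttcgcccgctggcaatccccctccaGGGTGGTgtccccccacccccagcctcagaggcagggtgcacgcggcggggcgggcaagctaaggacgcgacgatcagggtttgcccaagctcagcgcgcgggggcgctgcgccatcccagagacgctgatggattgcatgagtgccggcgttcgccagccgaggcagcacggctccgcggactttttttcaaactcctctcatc
The Gli2 match, on the opposite strand, starts 205 bases before the start site. The match is a description of letters and not a site, and these windows leave out more distant elements. The GC content was 76.0% for Hhip, 78.4% for Ptch1 and 58.8% for Gas1.

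The rest of the pathway was read by 80 further genes in 5 roles. Of these 66 were tested, 11 fell and none rose, beside 8.33% lower and 7.43% higher over all features, with a median log2 change of -0.22. That none rose did not hold under every processing alternative. With no scaling between arrays 10 passed as lower and 10 as higher, and with normexp 15 and 4. A trended, robust variance model gave 15 lower and 3 higher, and the replicate number as a block gave 12 and 1. Requiring a signal on all 4 arrays before fitting gave 11 and 1. The methods' test without adjustment, described below, gave 14 and 4. In the fit over all features tested, 10 of the 63 that were well above background on all 4 arrays fell, with a median of -0.20. Of the 22640 features that were so measured 1574 fell and 1437 rose, with a median of -0.01. The target list was drawn up with earlier results of these data known, and its count is not independent evidence of a direction. Of 9 genes for the ligands and their release, Shh, Ihh and Dhh, the ligands themselves, and Disp2 were not well above background on any array. The other 5 were tested and none passed. Among these Scube1, a secreted protein of a family that helps release the ligand, read -3.88 and -3.71 on the control and -4.85 and -4.18 on the exposed arrays. The difference of -0.72 ± 0.26 did not pass (limma adjusted p = 0.13), and exposed array 1 was not well above background.

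Of 6 other receptors and surface modifiers 4 were tested and 1 fell. Gpc6, a cell-surface glypican that promotes Hedgehog signalling in growing bone, read 0.48 and -0.15 on the control arrays and -2.0 and -1.75 on the exposed arrays. Both exposed arrays lay well below both controls, a log2 change of -2.04 ± 0.26 or 4.11-fold lower (limma adjusted p = 0.010). Lrp2, in the same role, lay higher. It read -5.13 and -6.78 on the control arrays, not well above background, and -3.46 and -4.36 on the exposed arrays. The difference of 2.05 ± 0.61 was the largest rise among the tested pathway genes and did not pass (limma adjusted p = 0.085). Lrp2 was tested only through its exposed arrays and so could differ in 1 direction only.

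Of 20 genes that pass the signal between Smo and Gli, all 20 were tested and none passed, with a median of 0.04. These included Sufu, which holds the Gli proteins back, at -0.48 ± 0.29, and Kif7, a ciliary kinesin, at -0.31 ± 0.22. The difference farthest from 0 in this role was that of Ulk3, a kinase that acts on Gli proteins, at 0.60 and 0.56 on the control and 1.70 and 1.18 on the exposed arrays (0.86 ± 0.22, limma adjusted p = 0.061). Of 20 genes of the primary cilium, all 20 were tested and 1 fell, with a median of -0.14. That gene was Ofd1, which encodes a centriole and basal body protein. It read 2.81 and 2.73 on the control and 1.64 and 1.24 on the exposed arrays (-1.33 ± 0.19, 2.51-fold lower, limma adjusted p = 0.015). Transcripts of the transport machinery that moves Smo and Gli in the cilium, such as Ift88 and Kif3a, did not pass.

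Of 26 genes described as Hedgehog targets in mesenchyme or other tissues, 17 were tested and 9 fell, with a median of -0.93. Over all features tested 8.33% fell and the median was -0.01. Cntfr, 1 of the 9, was tested only through its control arrays and so could differ in 1 direction only. Of the 16 targets well above background on all 4 arrays 8 fell, with a median of -0.88. The list was drawn up with earlier results known, so these counts are descriptions. Igf2, a fetal growth factor, read 6.25 and 5.59 on the control arrays and -2.59 and -3.50 on the exposed arrays, which is 499.1-fold lower (-8.96 ± 0.38, limma adjusted p = 0.00055). Spp1, the secreted bone matrix protein osteopontin, read 7.52 and 8.42 against 1.53 and 0.67, or 117.1-fold lower (-6.87 ± 0.42, limma adjusted p = 0.0014). Sfrp1, a secreted Wnt inhibitor, read 6.87 and 6.90 against 3.08 and 3.08, or 14.0-fold lower (-3.81 ± 0.15, limma adjusted p = 0.00040). For each of these 3 genes the arrays of a group lay far closer to each other than to the other group, and all 4 spots were well above background.

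The other 6 were smaller changes. Sox9, a regulator of cartilage, read 2.78 and 2.28 against 0.24 and 0.17, or 5.00-fold lower (-2.32 ± 0.22). The forkhead factor Foxf2 read 3.17 and 3.43 against 1.60 and 0.98, or 4.03-fold lower (-2.01 ± 0.26). Osr2, a zinc-finger factor of the palate and joints, read 0.57 and 0.36 against -1.59 and -1.25, or 3.70-fold lower (-1.89 ± 0.19). These 3 are mesenchymal transcription factors, and the exposed arrays lay below the controls in each. Snai1, a repressor of epithelial genes, changed by -1.43 ± 0.15 and Foxs1, a forkhead factor of pericytes, by -0.93 ± 0.16. Cntfr, a cytokine receptor subunit, was at least 2.22-fold lower, being not well above background on either exposed array. Limma adjusted p-values for these 6 ran from 0.0043 for Sox9 to 0.038 for Cntfr. Among the targets that did not pass, the cyclins Ccnd1 and Ccnd2 differed by -0.84 ± 0.22 and -0.58 ± 0.16 (limma adjusted p = 0.066 and 0.070). The largest rise among the targets was that of Foxc2, at 0.98 ± 0.34, which did not pass either (limma adjusted p = 0.12).

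**Figure D3:**
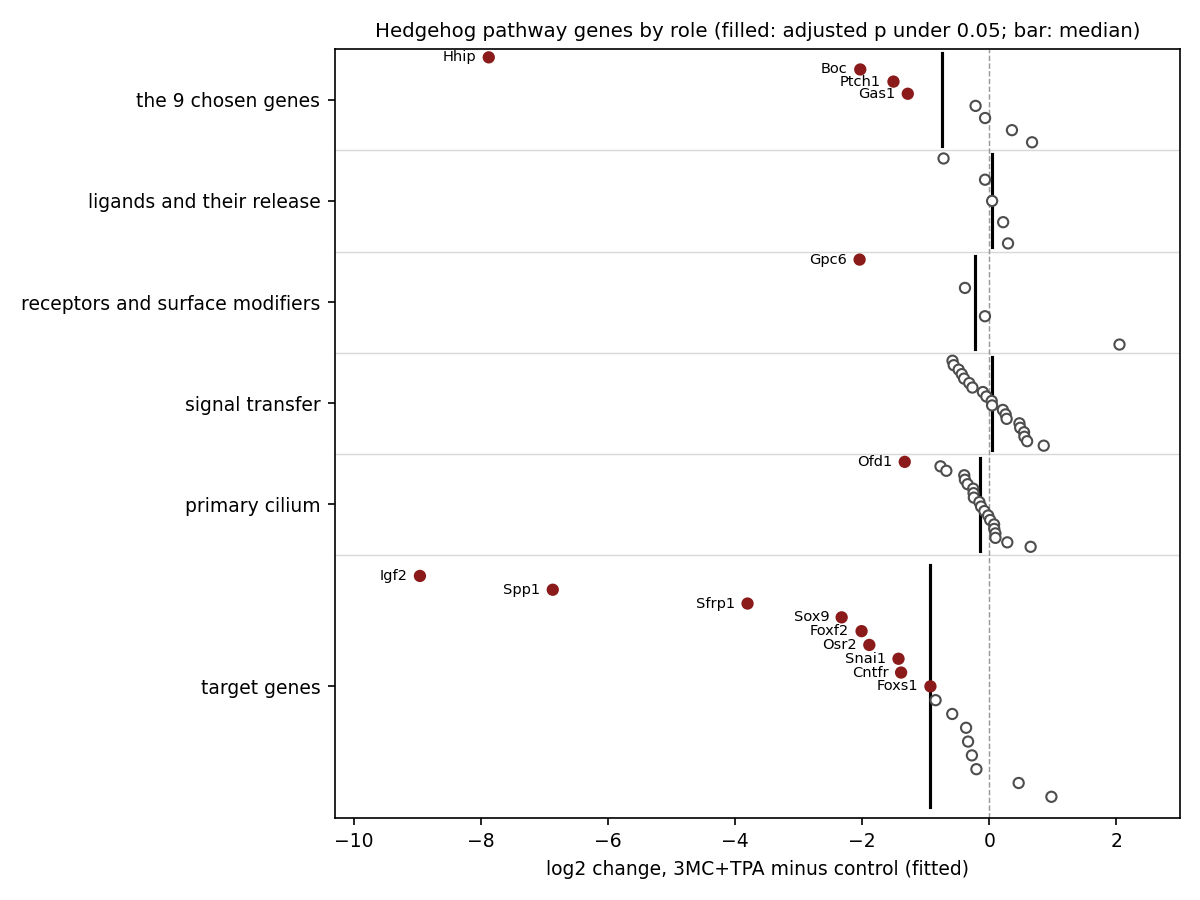
Fitted log2 change (3MC+TPA minus control, horizontal axis) of each tested gene by role, filled and named where the adjusted p was under 0.05, with a bar at the median of the role. Named genes lie left of 0 in the chosen 9, the receptors (Gpc6), the cilium (Ofd1) and the targets (9 of 17), and none is named among the ligands or in signal transfer.

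Genes with a profile like that of each called gene were taken as the 3 features nearest to it over the 4 arrays, after centring each on its own mean. Being chosen for likeness, they carry no test. Nearest to Hhip was Nkd2, an inhibitor of Wnt signalling, at a distance of 0.42 in log2 units. It read 2.29 and 3.36 on the control and -5.23 and -5.34 on the exposed arrays, with control array 2 the higher, as for Hhip. The next were Aox3, an aldehyde oxidase, at 0.92 and Slit3, a secreted guidance cue, at 0.93, and only Nkd2 lay within 0.5 of Hhip. The exposed values of Aox3 were -6.89 and -7.05 and those of Slit3 -5.52 and -5.33. For Hhip and all 3 neighbours the exposed values lay below the dimmest well-measured signals of those arrays, -4.82 and -4.80. The distances to Hhip therefore compare values near background on the exposed arrays. For Gas1 the nearest features were Snx32, Tbc1d4 and Oas1b, at 0.08 to 0.11. For Ptch1 the nearest named gene was Prrx1, a homeobox factor of limb mesenchyme, at 0.07. Within 0.5 lay 209 features for Boc, 578 for Gas1 and 568 for Ptch1, so that these 3 profiles are shared by many features.

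The values of the 8 tested genes were recomputed under 16 processing alternatives. Hhip and Ptch1 could be computed in 15 of them, since requiring a signal on all 4 arrays removes both. Hhip stayed between -8.66 and -4.39 and passed in 14 of 15. Boc stayed between -2.19 and -1.68 and passed in 15 of 16. Ptch1 stayed between -1.57 and -0.53 and passed in 14 of 15, and Gas1 between -1.45 and -0.93 in 11 of 16. Gli3 lay above 0 in all 16 and passed in none, and Smo and Gli2 passed in none. With the methods' t-test in place of limma, adjusted by Benjamini-Hochberg over the 24919 features it could be computed for, none of the 9 genes passed, while unadjusted the same 4 did, and that unadjusted test is 1 of the alternatives counted here.

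**Figure D4:**
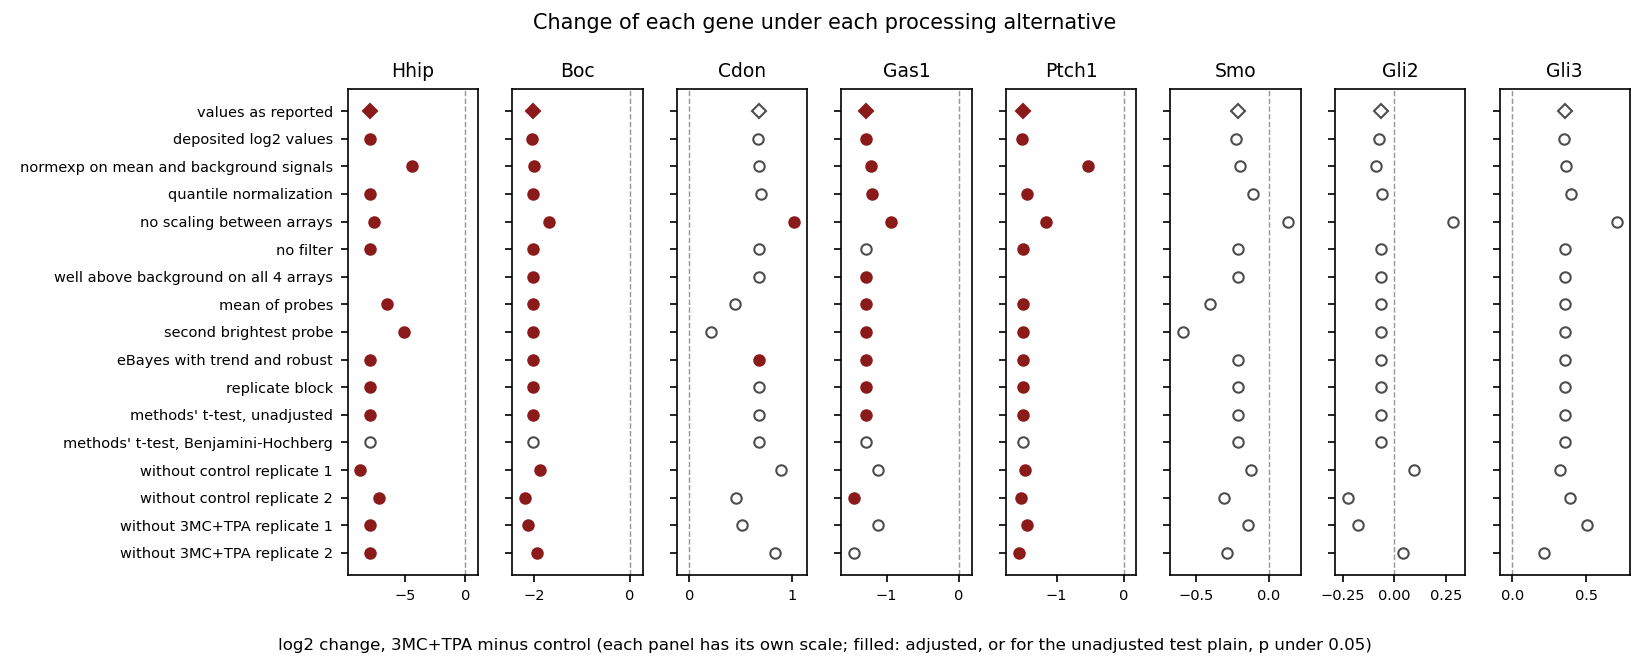
Log2 change (3MC+TPA minus control, horizontal axis, 1 scale per panel) of each tested gene under each processing alternative (rows), with the reported value as a diamond and filled symbols where the test was passed. Hhip, Boc, Gas1 and Ptch1 lie below 0 in every row, Cdon and Gli3 above 0 in every row, and Smo and Gli2 on both sides of 0.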

How the data were processed

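RNA of control and 3MC+TPA cells was hybridised to 2 one-colour arrays a group, of a custom mouse design, and groups were taken from the sample titles. Spot intensity values were extracted with Agilent Feature Extraction 10.7.3.1, per the file headers, with background subtracted, trends within an array removed and dim spots given a substitute value. The deposited log2 table equalled the log2 processed signal, less the 75th percentile of its array, to within 0.01, after a constant offset of at most 0.015, for at least 61302 of 61307 probes per array. GeneSpring GX and a test per gene are named in the series' design text. Here log2 processed signals minus the 75th percentile over probe spots were fitted with limma 3.58.1 (lmFit, eBayes) in R 4.3.3, 2-sided, without covariates. The code was tested on simulated data. Spots of 1 probe were averaged and flagged outliers left out. The genes and lists were chosen with earlier results of these data known. Named were all 9 genes, every called gene of each role or else the one with the largest difference, and the 3 nearest profiles of each called gene, of which those of Boc and 2 of Ptch1 without a gene symbol are not reported here. Sufu, Kif7, Ift88, Kif3a, Ccnd1, Ccnd2, Lrp2, Foxc2 and the markers were named after their values were seen. Gene symbols are those of the array design, and probe coordinates were not used here. The replicate numbers were checked for pairing by the correlation of replicate 1 minus 2 between groups, which was 0.002 over 24919 features, so they were not used as pairs.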

Additional observations from a re-analysis of the deposited data

How the results depend on the processing

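Over all features 3936 passed. The count was 6679 with no scaling between arrays (79.1% of calls higher, against 47.2%), 916 with no filter on dim probes, 23 with the methods' t-test after Benjamini-Hochberg (5721 unadjusted), and 1182 to 3300 leaving out an array in turn. Of the 9 Hedgehog genes 4 passed. The count was 2 where a signal on all 4 arrays was required and 3 with no filter on dim probes. With the methods' t-test it was 0 after Benjamini-Hochberg (4 unadjusted). It was 5 with no scaling and 5 with a trended, robust variance model, and in both Cdon passed as higher. Of the other pathway genes 11 passed, all lower in the reported fit. Some alternatives also gave higher calls: 3 of 18 with a trended, robust variance model and 4 of 18 with the methods' test unadjusted. Requiring a signal on all 4 arrays gave 12 calls with 1 higher, and the replicate block gave 13 with 1 higher. The count was 19 with normexp (15 lower), 20 with no scaling (10 lower), 4 with no filter, 18 with a trended, robust variance model, 18 and 1 with the methods' t-test unadjusted and adjusted, and 7 to 12 leaving out an array. Signs turned for 2 genes: Smo to 0.13 and Gli2 to 0.28 with no scaling, and Gli2 ran from -0.23 to 0.10 leaving out an array. The cause of these shifts was not tested. No scaling moved the median of all features to 0.34. With the replicate number as a block, 3540 features and 4 Hedgehog genes passed, the same 4, and this pairing changed no call among the 9. Signal over background limits Hhip and Ptch1 to bounds and leaves Gli1 untested.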
